A study of Mus musculus with 29 samples.

Results

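The genes described here are 38 interferon-stimulated effector genes of the mouse, which encode antiviral enzymes, RNA sensors, the ISG15 conjugation system and other proteins made by cells that have received an interferon signal. They were chosen from earlier results of these data, in which they were higher in K556R than in wild-type livers, so the genotype differences below describe them and carry no test of the choice. They are 38 of the 54532 genes in the count table, and all 38 passed the filter on low counts, as did 15603 genes in all.

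The libraries are poly-A RNA-seq of liver from obese male mice carrying a conditional, hepatocyte-specific Prox1 allele with the K556R substitution, a lysine-to-arginine change that leaves the encoded homeobox transcription factor deficient in SUMOylation. Mice ate chow until 8 weeks of age, when the allele was switched on with Cre recombinase, and then a diet of 45% fat and 20% fructose for 18 weeks. Livers were taken at Zeitgeber time 15 to 17, fasted or refed. The 4 groups are WT fasted (8 libraries), K556R fasted (7), WT refed (6) and K556R refed (8), spread over 2 batches named in the labels. Sample titles call K556R libraries Cre and WT libraries Ctrl, and the labels do not say whether WT mice received or carried Cre, so the allele and Cre induction cannot be told apart. The strain and the Cre driver are not given in the sources used here. The labels do not state that each library is its own mouse, and the tests below therefore speak only of spread among libraries. In bulk liver RNA, fewer cells of a type and less RNA per cell cannot be told apart.

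Totals ran from 14385218 to 27278251 counts per library, with medians of 22106062 in batch 1 and 17331641 in batch 2. Prox1 itself had median levels of 174 CPM (counts scaled to library size) in WT fasted, 187 in K556R fasted, 168 in WT refed and 149 in K556R refed livers. Gene counts do not show the point mutation itself, so these levels do not check the genotype labels. Hepatocyte markers summed to between 63800 and 114000 CPM in every library. Over all tested genes, K556R refed replicate 4 of batch 1 and WT refed replicate 1 of batch 2 lay farthest from the mean of their own group and batch. Counts of called members are also given without them where they differ.

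Type I interferon binds a receptor of IFNAR1 and IFNAR2 and activates the kinases JAK1 and TYK2. A complex that includes IRF9 then binds the interferon-stimulated response element (ISRE) in the promoters of effector genes, while the GAS element is the one bound after interferon gamma. Hepatocytes respond to interferon, and Kupffer cells, plasmacytoid dendritic cells and lymphocytes are among its known sources.

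The ISRE is shown because it is the sequence the members' known regulator binds. The letters searched were GAAANNGAAA, on either strand, from 250 bases before to 50 after the annotated start, in RefSeq promoters (GRCm38.p6). A window was found for 27 members, of which 16 (59.3%) held a match, against 3.99% of 27025 genes; the GAS letters TTCNNNGAA, which may share bases with an ISRE match, were in 4 of the 27 (14.8%), against 9.55%. A match describes letters, not a bound site. The stretches below run 5′ to 3′ on the gene's strand, with matching bases in capitals (also where matches overlap). They are 1 or 2 examples from each of 4 roles. Those of Ifit3b (identical to Ifit3), Ddx60, Oas3, Trim30a, Trim30d, Apol9a, Apol9b, Ddx58 and Ifih1 are not printed.
Isg15, chr4:156200860-156200911, minus strand, with 3 matches: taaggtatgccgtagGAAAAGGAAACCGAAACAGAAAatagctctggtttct
Ifit1, chr19:34640770-34640828, plus strand, with 2 matches: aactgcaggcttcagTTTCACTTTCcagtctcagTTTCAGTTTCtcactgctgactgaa
Ifit3, chr19:34583358-34583431, plus strand, with 2 matches: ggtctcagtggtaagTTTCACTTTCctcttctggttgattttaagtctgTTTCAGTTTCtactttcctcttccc
Oas1a, chr5:120907526-120907560, minus strand, with 2 matches: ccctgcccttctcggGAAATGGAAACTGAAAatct
Oas1g, chr5:120887614-120887646, minus strand, with 2 matches: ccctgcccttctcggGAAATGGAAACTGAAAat
Rsad2, chr12:26456548-26456587, minus strand, with 1 match: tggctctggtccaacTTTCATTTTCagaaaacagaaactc
Bst2, chr8:71537572-71537617, minus strand, with 2 matches: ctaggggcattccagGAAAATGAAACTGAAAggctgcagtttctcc

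Members with a match had a median genotype difference of 0.76 on the log2 scale (n = 16), those with a window but no match 0.65 (n = 11), and these overlap: Ifi44, with no match, had the largest difference of the 38.

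Averaged over fasted and refed livers, all 38 members were higher in K556R than in WT (log2 difference from 0.11 for Dtx3l to 1.29 for Ifi44, median 0.74, against 0.002 for all tested genes). The rule chose them from this contrast, so this count is a description. Of the 38, 31 passed edgeR's adjusted threshold of 0.05 where 1.24% of all tested genes did. With batch 1 alone 30 members passed, of 125 genes in all, and with batch 2 alone 0 of all 15363 genes passed, members or not. In fasted livers the median was 0.75 and 6 members were called (Apol9a, Apol9b, Usp18, Rtp4, Ifi44 and Trim30d), where 0.103% of genes were called; that count ran from 0 to 17 when 1 library was left out. In refed livers it was 0.65 and 0 members were called, where 0% of genes were, with 34 of the 38 members and 1319 of all 15603 genes at an unadjusted p below 0.05.

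The mean of the 38 log2 CPM values in a library shows where the difference sits. It was 3.51 ± 0.12 (SD, n = 8) in WT fasted, 4.25 ± 0.50 (n = 7) in K556R fasted, 3.61 ± 0.18 (n = 6) in WT refed and 4.23 ± 0.48 (n = 8) in K556R refed libraries. The SD of the K556R groups was larger than that of the WT groups in both feeding states, with the batches pooled. Within batch 1 the SDs were 0.409 (K556R) and 0.039 (WT) fasted, and 0.419 and 0.07 refed. Within batch 2 they were closer, at 0.225 (K556R) and 0.171 (WT) fasted, and 0.227 and 0.107 refed. In batch 1, 6 of the 8 K556R libraries stood between 4.61 and 4.94, while K556R fasted replicate 2 (3.96) and refed replicate 4 (3.97) were lower, and the 7 WT libraries lay between 3.50 and 3.80. In batch 2 the 7 K556R libraries lay between 3.60 and 4.10 and the 7 WT libraries between 3.29 and 3.70. The genotypes thus overlapped with feeding states pooled, and also in fasted livers alone (lowest K556R 3.598, highest WT 3.702). In refed livers the lowest K556R value (3.611) was just above the highest WT value (3.589).

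**Figure D1:**
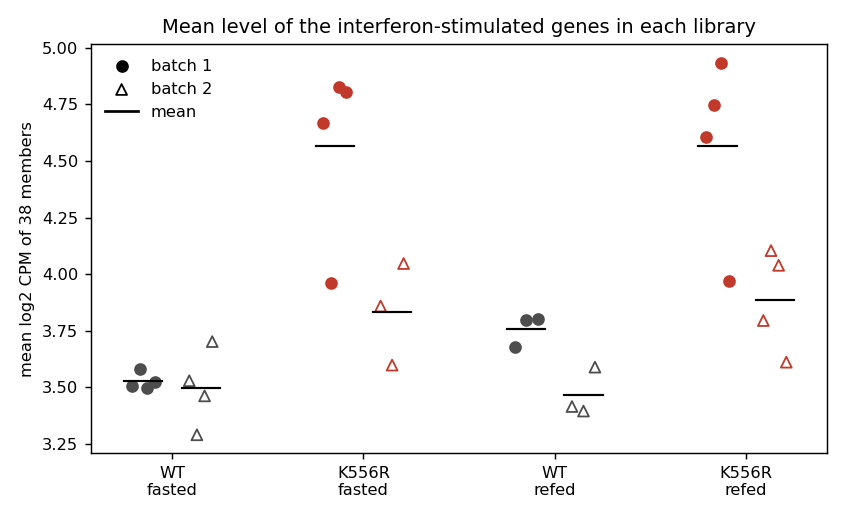
Mean log2 CPM of the 38 members (y axis) in each library, by group (x axis) and batch (filled circles, batch 1; open triangles, batch 2; black lines, mean of that group and batch). The K556R libraries of batch 1 other than the 2 lower ones lie between 4.61 and 4.94. The 2 lower ones (3.96 and 3.97) also lie above every WT library.

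Within each batch and feeding state, the K556R libraries all lay above all WT libraries for 29 members in fasted batch 1 (2.44% of all tested genes), 9 in fasted batch 2 (3.19%), 20 in refed batch 1 (3.73%) and 10 in refed batch 2 (4.86%). Fitted with a coefficient for each group and batch, the median member difference was 1.06 in batch 1 and 0.37 in batch 2. The genotype difference was larger in batch 1 for 38 of 38 members (51.1% of all genes), by a median of 0.61 on the log2 scale. Members share the same libraries and are not replicates, so counts of members here are a description. No member was called for this batch difference by edgeR, where 0% of genes were called, and 25 of the 38 and 1358 of all 15603 genes stood at an unadjusted p below 0.05; DESeq2 called 1 gene of all, Rtp4. The largest difference by edgeR's p was that of Rtp4 (0.88 ± 0.18 SE, adjusted p = 0.343 by edgeR), followed by Apol9b (0.95 ± 0.23 SE, adjusted p = 0.343 by edgeR). The batches also differed in depth, and what the batch label stands for is not given, so its part in the result was not tested.

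**Figure D2:**
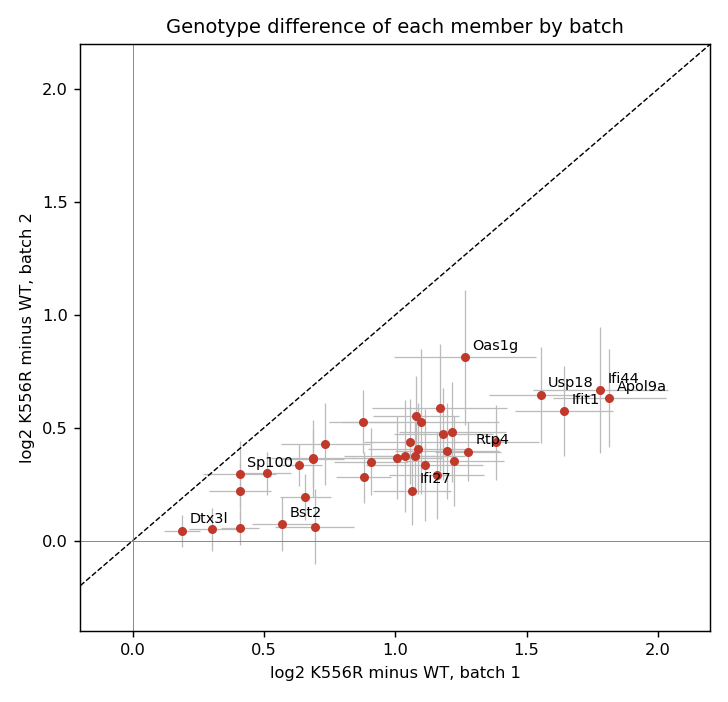
Log2 K556R minus WT difference of each member, averaged over feeding, in batch 1 (x axis) and batch 2 (y axis), with bars of 1 SE and a dashed line of equal values. All 38 points lie below the line, with medians of 1.06 and 0.37.

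By role, the median batch 1 difference was highest for the APOL9 and RTP4 genes (1.38, against 0.44 in batch 2), followed by ISG15 conjugation (1.18 and 0.47), the IFIT family (1.13 and 0.35), the antiviral enzymes, GTPases and tether (1.10 and 0.37) and the OAS family (1.09 and 0.41). The ADP-ribosylation complex was lowest (0.41 and 0.06). In batch 2 no role's median passed 0.50. Averaged over feeding, 38 of 38 members had a value above 0 there, where 47.6% of all tested genes did. In batch 2 this held for 37 members in fasted and 36 in refed livers. The contrast that chose the members includes the batch 2 libraries, so these counts are a description.

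The ISG15 system links the ubiquitin-like protein ISG15 to targets (Herc6 is the mouse ligase) and removes it (Usp18, which also damps the interferon receptor). Usp18 stood at a lowest, median and highest of 8.42, 12.1 and 16.8 CPM in WT fasted, 8.5, 24.9 and 60.5 in K556R fasted, 7.63, 9.39 and 12.7 in WT refed, and 9.53, 17.3 and 36 in K556R refed livers. Its batch 1 K556R fasted values were 24.9, 49.3, 55.2 and 60.5 CPM, all above the 4 WT values of 12.4 to 16.8. In batch 2 the 3 K556R fasted values (8.5, 18.0 and 18.8) overlapped the 4 WT values (8.42 to 11.8). Usp18 differed between genotypes by 1.24 ± 0.23 (log2 ± SE) fasted and 1.07 ± 0.25 refed. Isg15 ran from 4.35 to 9.27 CPM in WT and from 5.35 to 19.5 in K556R libraries, with differences of 0.90 and 0.81, and Herc6 differed by 0.62 and 0.57.

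IFIT proteins bind foreign RNA and block its translation. Ifit3 (chr19:34583531-34588731) stood at a lowest, median and highest of 10, 12.1 and 14.2 CPM in WT fasted, 9.62, 18.4 and 44.7 in K556R fasted, 10.8, 15.8 and 21.1 in WT refed and 12.1, 18.5 and 46.7 in K556R refed livers. The highest K556R values were all of batch 1. Its copy Ifit3b (chr19:34607970-34613401) reached 10.4 CPM in K556R fasted against at most 4.06 in WT fasted livers, and both differed more in fasted (0.97 and 0.95) than in refed livers (0.54 and 0.55), without a called interaction. Of the 100-base stretches of Ifit3, 31.7% occur in Ifit3b and 27.4% of Ifit3b's in Ifit3, so reads can be split between them. Ifit1 differed by 1.07 fasted and 1.17 refed, the largest of the family, and Ifit2 by 0.75 and 0.73.

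OAS enzymes make the short adenylate chains that activate RNase L. Oas1a and Oas1g share 40.9% and 31.2% of their 100-base stretches, so each is uncertain. Oas1g stood at a lowest, median and highest of 1.74, 2.03 and 2.5 CPM in WT fasted, 2.05, 3.81 and 8.63 in K556R fasted, 1.03, 1.73 and 2.42 in WT refed and 1.54, 4.03 and 5.67 in K556R refed livers. Oas1a, at 4.9 CPM (median) in WT fasted and 5.66 in K556R fasted, reached 14.1 in K556R fasted and at most 5.4 in WT fasted. The OAS differences ran from 0.27 (Oas1b, annotated as a polymorphic pseudogene) to 1.14 (Oas3) fasted and from 0.46 (Oas2) to 1.10 (Oas1g) refed. Oasl1, an OAS-like protein known to limit Irf7 translation, is taken up with refeeding below.

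The RNA sensors Ddx58 (RIG-I), Ifih1 (MDA5) and Dhx58 (LGP2), the helicase Ddx60 and the Z-nucleic acid sensor Zbp1 differed by 0.38 to 0.79 fasted and 0.42 to 0.80 refed. Ifih1 stood at a lowest, median and highest of 28.2, 31.1 and 35.2 CPM in WT fasted, 31.9, 38.4 and 59.5 in K556R fasted, 29.1, 33.7 and 36.3 in WT refed and 28.4, 40.6 and 65.4 in K556R refed livers. All groups overlapped in their lower values, and the highest values in both states were K556R libraries.

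Among the antiviral GTPases, enzymes and the tether that holds virus particles, Bst2 (tetherin) was the most abundant. It stood at a lowest, median and highest of 126, 149 and 173 CPM in WT fasted, 147, 155 and 269 in K556R fasted, 115, 155 and 195 in WT refed and 141, 198 and 233 in K556R refed livers, which overlap. Mx1 had the largest fasted difference of the 5 (1.18 ± 0.30 SE), from 2.24 CPM (median, WT) to 5.99, and 0.50 ± 0.31 refed. That refed value is 0.34 ± 0.30 without WT refed replicate 1 of batch 2, which stood at 0.867 CPM where the other 5 lay between 2.87 and 4.24. Rsad2 (viperin), Cmpk2 and Mx2 (annotated as a polymorphic pseudogene) differed by 0.76 to 0.85 fasted and 0.61 to 0.77 refed.

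Parp9 and Dtx3l form an ADP-ribosylation and ubiquitin complex, and their exons overlap by 458 bases on opposite strands; the strand setting of the counting is not given, so reads there cannot be assigned. Dtx3l had the smallest difference averaged over feeding, with 0.21 ± 0.08 SE fasted and 0.01 ± 0.09 refed, at 54.2 to 76.3 CPM in WT fasted and 72.9 to 84.7 in K556R fasted, and 63.3 to 97.4 and 60.8 to 94.3 refed. Parp9 differed by 0.25 and 0.22 and Parp14 by 0.48 and 0.49. Averaged over feeding, Ifi35 (0.18 ± 0.07 SE) had the next smallest difference after Dtx3l, at 13.5 to 21.3 CPM in WT fasted and 14.4 to 25 in K556R fasted livers.

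Apol9a and Apol9b, apolipoprotein L genes, share 36.7% of Apol9b's stretches with Apol9a. Apol9a stood at a lowest, median and highest of 15.2, 26.0 and 42.1 CPM in WT fasted, 47.5, 66.9 and 91.0 in K556R fasted, 24.4, 35.2 and 72.7 in WT refed and 36.1, 69.5 and 123 in K556R refed livers. The fasted groups did not overlap. Apol9b likewise ran from 26.3 to 68.9 CPM in WT fasted and 66.5 to 104 in K556R fasted, overlapping at 66.5 to 68.9. Rtp4, which helps receptors reach the cell surface, ran from 9.44 to 12.2 CPM in WT fasted and 13.4 to 29.3 in K556R fasted, also apart, and from 11 to 13.9 and 11.7 to 37.3 refed. It differed by 0.85 ± 0.17 SE fasted and 0.86 ± 0.18 refed.

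Trim30d was the only one of the 38 whose K556R values were above all WT values of the same batch and state in 15 of 15 libraries. Rtp4, Usp18 and 5 others did so in 14, and Dtx3l in 5. This count was not made over all tested genes. The members were chosen for being higher in K556R, so it only describes them. Trim30a and Trim30d, of the tripartite motif family, differed by 0.63 and 0.67 fasted, and Sp100, a nuclear body protein, by 0.38, from 11.5 to 18.0 CPM in WT fasted and 13.3 to 30.8 in K556R fasted. Ifi44, an interferon-induced cytoplasmic protein, stood at a lowest, median and highest of 2.37, 3.55 and 4.82 CPM in WT fasted and 2.98, 8.41 and 21.5 in K556R fasted, and 3.11, 5.38 and 6.5 and 4.73, 7.82 and 24.6 refed. Ifi27 stood at 67.5 to 113 CPM in WT fasted and 112 to 247 in K556R fasted. Xaf1 and Lgals3bp differed by 0.78 and 0.36 fasted.

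Per length, as TPM (counts divided by exonic length and scaled to library size), the order of levels in WT fasted livers began with Bst2 (386 ± 50.9 SD, n = 8), Ifi27 (150 ± 27.4), Lgals3bp (97.8 ± 17.7) and Apol9b (55.4 ± 17), followed by Parp9 (29 ± 3.37) and Dtx3l (28.2 ± 2.93), which do not differ beyond their spread. Oas3 was lowest at 0.744 ± 0.274 and Ddx60 next at 1.29 ± 0.275. Of the 38, 2 were at 100 TPM or more, 11 from 10 to 100, 24 from 1 to 10 and 1 below 1. In K556R fasted livers Bst2 was at 529 ± 170 and Ifi27 at 282 ± 107 TPM.

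**Figure D3:**
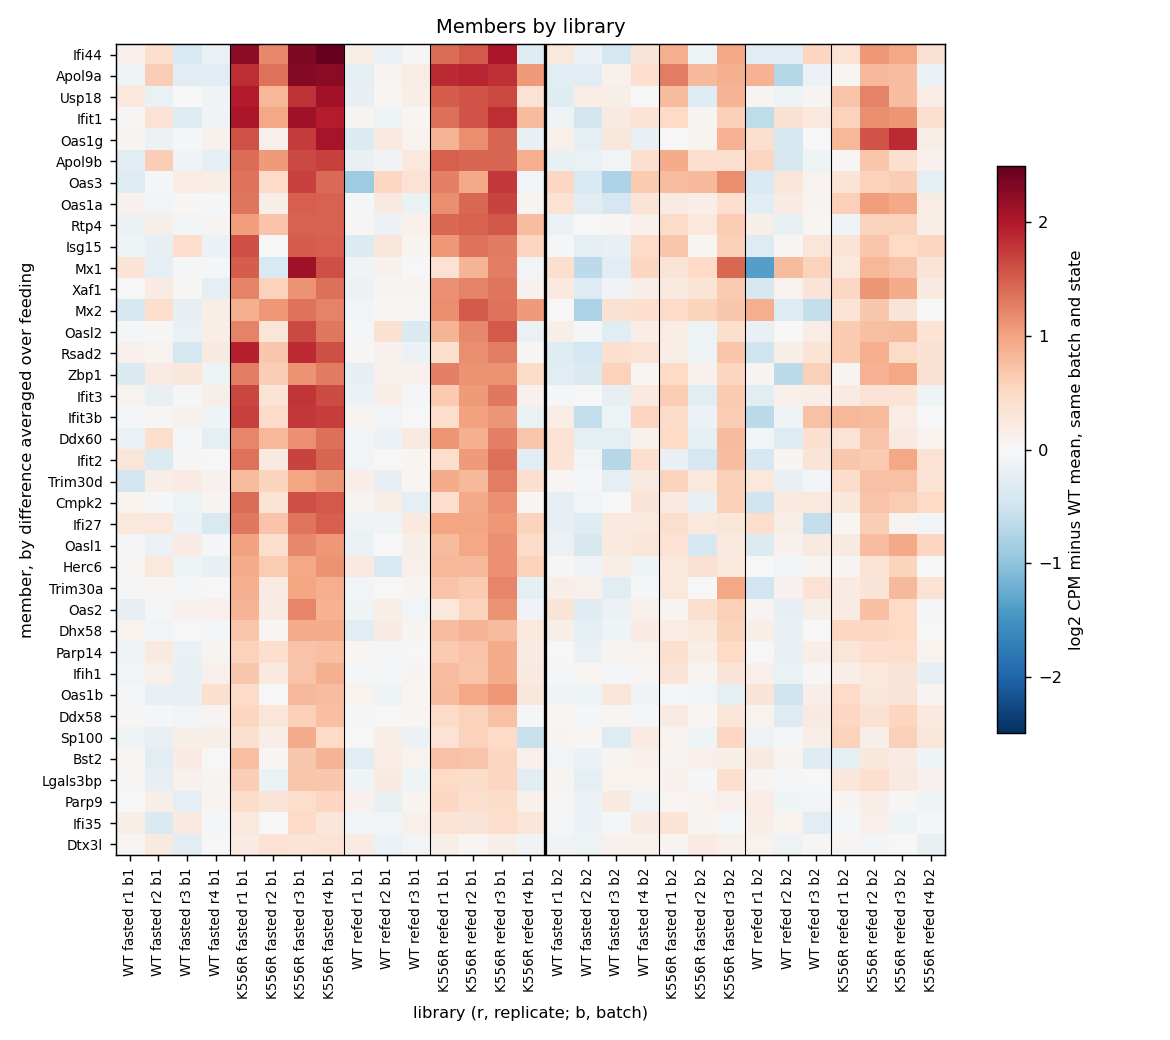
Log2 CPM of each member (rows, ordered by the genotype difference averaged over feeding) in each library (columns, batch 1 left of the thick line) minus the WT mean of the same batch and feeding state. The K556R columns of batch 1 are the darkest, except fasted replicate 2 and refed replicate 4.

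Refeeding was not used to choose the members. In WT, 24 were higher and 14 lower after refeeding, with a median of 0.10 on the log2 scale against 0.001 for all tested genes, and 1 of the 38 was called, where 10.7% of all tested genes were. In K556R, 17 were higher and 21 lower, with a median of -0.02, and 1 was called, where 15.4% of genes were. The called gene was Oasl1 both times. The 3 APOL9 and RTP4 genes were higher after refeeding in both genotypes, with values from 0.22 to 0.59 in WT and 0.15 to 0.23 in K556R, none called. In K556R of batch 2 only 1 of the 3 was higher (median -0.13, against 0.40 in batch 1). Among WT refed libraries, Apol9a and Apol9b were highest in replicate 1 of batch 2 (72.7 and 82.3 CPM). With 1 library left out, their WT values ran from 0.29 to 0.75 and from 0.12 to 0.44. The 5 antiviral enzymes, GTPases and tether were also all higher in WT (0.10 to 0.47), and 2 of the 5 in K556R, none called. The TRIM30 and nuclear body genes were lower in WT (3 of 3, from -0.13 to -0.06), none called. Oasl1 stood at a lowest, median and highest of 9.8, 11.4 and 15.9 CPM in WT fasted and 12.8, 18.1 and 21 in WT refed livers. In K556R it stood at 9.62, 16.7 and 26.3 fasted and 18.7, 29.4 and 41.6 refed, and with batches pooled the feeding states overlapped in each genotype. Within batch they were apart in WT of batch 1 (10.4 to 13.2 fasted, 16.7 to 21 refed) and K556R of batch 2 (9.62 to 16.7, 18.7 to 31.2). They overlapped in WT of batch 2 (9.8 to 15.9, 12.8 to 18.9) and met at 26.3 in K556R of batch 1. Oasl1 rose by 0.50 ± 0.17 SE in WT (adjusted p = 0.0495, edgeR) and by 0.70 ± 0.16 in K556R (adjusted p = 0.00227, edgeR).

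The WT call of Oasl1 was lost in 14 of 29 fits that left out 1 library (adjusted p from 0.0508 to 0.107, edgeR). These libraries were WT fasted replicates 1 to 4 of batch 1 and 1 and 2 of batch 2, WT refed replicates 2 and 3 of both batches, K556R fasted replicates 1 and 3 of batch 2, and K556R refed replicate 1 of batch 1 and 2 of batch 2. It was also lost without the batch term (adjusted p = 0.0753, edgeR) and in batch 2 alone (adjusted p = 0.506, edgeR). The K556R call held in batch 1 (0.62 ± 0.19 SE) and in batch 2 (0.86 ± 0.21). Ddx58 was just outside in K556R (0.27 ± 0.10 SE, adjusted p = 0.052, edgeR). Other members did not pass: Cmpk2 (0.47 ± 0.22 SE, adjusted p = 0.198, edgeR) and Apol9a (0.59 ± 0.28, adjusted p = 0.194, edgeR) in WT, and Usp18 in K556R (-0.49 ± 0.22 SE, adjusted p = 0.141, edgeR).

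The interaction tested whether the genotype difference changed between fasted and refed livers. By edgeR 0 members were called, where 0% of all genes were; at an unadjusted p below 0.05 stood 440 of all genes and 0 of the 38 members, and DESeq2 called 0 members. The largest members' interactions by p were Dtx3l (-0.20 ± 0.12 SE) and Mx1 (-0.68 ± 0.43), each with an adjusted p of 1 by edgeR.

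**Figure D4:**
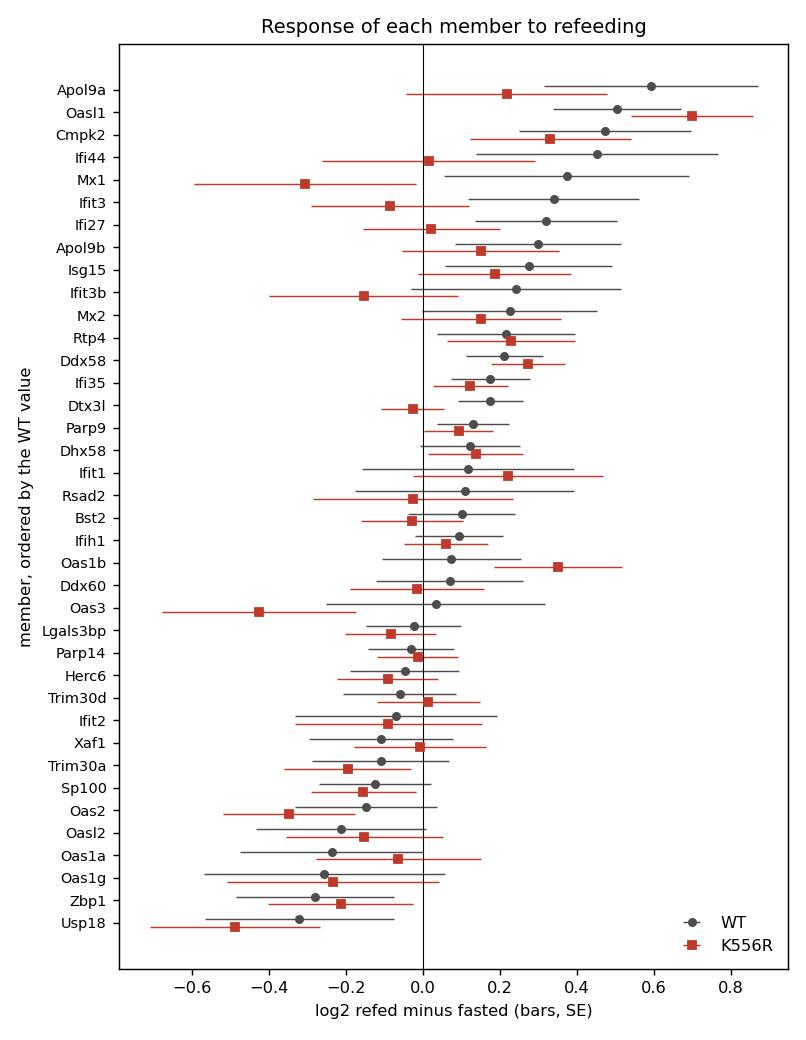
Log2 refed minus fasted of each member in WT (circles) and K556R (squares) livers, ordered by the WT value, with bars of 1 SE. Oasl1 was called in both genotypes and no other member was in either, though 5 members in WT and 4 in K556R, Oasl1 among them, stood at an unadjusted p below 0.05.

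Members varied together within K556R libraries after removing the mean of each group and batch. The median correlation over the 703 pairs was 0.77 over 15 K556R libraries and 0.12 over 14 WT libraries, 99.6% and 59.5% of pairs being positive; these points share libraries and are a description. K556R fasted replicate 2 and refed replicate 4 of batch 1 had low member means (3.96 and 3.97). The correlations were not recomputed without them. Oas1a (0.98) and Ifit1 (0.97) followed the member mean most closely in K556R, and Dtx3l (0.29) least. Ranked by r over all tested non-members, those most like the member mean in WT were Gdf6 (r = 0.92), Sec16b (0.86) and 6430571L13Rik (0.86). Their r in K556R was 0.67, -0.31 and -0.49. In K556R, by a ranking added after the values were seen, the 5 closest were Gm20559 (0.97), Gm21188 (0.96), Cox6b2 (0.96), Gbp3 (0.95) and Ly6e (0.95). Their r in WT ran from 0.01 to 0.43. Both rankings take the highest of very many r values over few libraries. High values can arise this way by chance, which was not tested, so the named genes are a description.

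The summed levels of the marker lists of liver cell types overlapped between the genotypes, and no marker was called for genotype, but some lists leaned one way. Averaged over feeding, 9 of 10 Kupffer cell and macrophage markers (median 0.17), 5 of 5 cholangiocyte markers (0.29; 0.52 in refed livers), 6 of 9 lymphocyte markers (0.33), 3 of 3 neutrophil markers (0.18) and 3 of 4 plasmacytoid dendritic cell markers (0.33) were higher in K556R, and 7 of 8 hepatocyte markers were lower (-0.05). In batch 1, where the member differences were larger, these medians were -0.04, 0.06, -0.24, -0.10, 0.28 and -0.02, and in batch 2 they were 0.35, 0.32, 0.27, 0.55, 0.28 and -0.16, in the same order. In the residuals from group and batch means, the member mean in K556R had r of 0.79 with 9 lymphocyte markers, 0.78 with 6 stellate cell markers and -0.78 with 8 hepatocyte markers, and in WT -0.03, 0.07 and -0.06. K556R fasted replicate 2 and refed replicate 4 of batch 1, low in member mean, had the lowest lymphocyte sums of their groups (18.2 and 17.7 CPM). No r was recomputed without them. For 5 cholangiocyte and 3 neutrophil markers r was 0.57 and 0.55 in K556R and 0.15 and 0.49 in WT. It was 0.20 with 10 Kupffer cell and macrophage, 0.37 with 4 plasmacytoid dendritic cell and 0.21 with 6 sinusoidal endothelium markers in K556R. In WT these r were 0.10, 0.14 and 0.30. Lymphocyte markers summed to 13.4 to 39 CPM in WT fasted, 18.2 to 34.1 in K556R fasted, 15.5 to 25.7 in WT refed and 17.7 to 34.3 in K556R refed livers. Kupffer cell and macrophage markers summed to 202 to 756, 193 to 621, 227 to 408 and 287 to 508 CPM in the same order, and plasmacytoid dendritic cell markers to 0.862 to 5.81, 2.08 to 6.44, 1.37 to 3.63 and 2.03 to 3.32. Neutrophil markers summed to between 3.08 and 10.3 CPM, with Ly6g at 0 in all libraries of 3 groups. Their part in the result was not tested.

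Of 68 other interferon pathway genes, 57 passed the filter. Averaged over feeding 12 of the 57 were called by edgeR (adjusted p from 0.000934 to 0.0354), all 12 higher in K556R, against 1.24% of all genes. In batch 2 alone 0 were called, as were 0 of all genes. The list was drawn up with earlier results of these data known. Its genotype counts and p-values therefore describe it and are no independent check on the members. Irf7, the amplifier of interferon genes, was 29.2 to 44.1 CPM in WT fasted and 38.2 to 115 in K556R fasted (0.87 ± 0.13 SE, adjusted p = 0.000934, edgeR). In the JAK-STAT and IRF list 4 of 13 were called, among them Irf7, Irf9 (0.48) and Stat2 (0.21), the last held in 16 of 29 fits that left out 1 library. Of 18 targets shared with interferon gamma 6 were called: the guanylate-binding proteins Gbp3 (0.93), Gbp6 (0.96) and Gbp7 (0.46), and the immunity-related GTPases Igtp (0.64), Irgm1 (0.50) and Irgm2 (0.64). Of 15 tested sensors and adaptors 2 were called, Eif2ak2 (0.35), which encodes PKR, and Adar (0.36), an RNA editor. None of the 6 receptors or 5 inhibitors was called (Ifnar1 0.01 ± 0.06 SE; Cish -0.54 ± 0.38).

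No interferon ligand passed the filter. Over all libraries Ifnb1 had 1 count in WT and 1 in K556R, Ifng 12 and 17, Ifnk 14 and 45, and Ifna2 0 and 1, while the other 6 were at 0. No library held more than 11 counts of any ligand, and a genotype difference in the ligands was not tested. Of the 57 tested pathway genes, 6 were called after refeeding in WT, where 10.7% of all genes were (Irgm1 rose by 0.47 and Cxcl10 by 0.85, while Myd88, Ifngr2, Tlr7 and Stat3 fell) and 7 in K556R, where 15.4% of all genes were (Eif2ak2 rose by 0.32 and Irgm1 by 0.36, while Ifngr2, Myd88, Ifnar2, Tbk1 and Socs3 fell). Neither count stands above the share over all genes. Myd88, an adaptor of Toll-like receptors, fell by 0.37 ± 0.07 SE in WT (adjusted p = 0.00123, edgeR) and by 0.46 ± 0.07 in K556R (adjusted p = 2.96e-05, edgeR).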

How the data were processed

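Per the labels, 29 liver libraries were made from poly-A RNA. The authors deposited raw counts per gene, with mm10 as the build and, as tools, TopHat, STAR, STAR-Fusion, HTSeq, edgeR and DESeq2, per the submitters' processing notes; the annotation release and the strand setting are not given in the sources used here. Gene names and lengths came from GENCODE M21, which lacks 37 of the 54532 identifiers. Counts were filtered (filterByExpr, minimum count 10, 99.92% of counts kept), scaled by TMM and fitted with edgeR 4.0.16 (quasi-likelihood, group and batch terms, R 4.3.3), with Benjamini-Hochberg adjustment over 15603 genes and a threshold of 0.05. CPM used a prior count of 2 on the log2 scale. DESeq2 1.42.0, other scalings, no filter, no batch term, each batch alone, a replicate block and leaving out each library were alternatives, and the fit was tested on simulated data.

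The members and all lists were chosen with earlier results of these data known. Named members had the highest CPM of their role, 1 of the 3 largest or smallest genotype differences, a call in a tested contrast (or the 2 smallest p), or a near-identical partner. Other values named were chosen after seeing them. The repeat numbers did not pair the libraries (40 pairs within batch, r from -0.39 to 0.36). The values of 1 called pathway gene are not reported here.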

Additional observations from a re-analysis of the deposited data

Results flagged for a closer look

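Mx1 in WT refed replicate 1 of batch 2 lay far below the other 5 WT refed libraries: its log2 CPM was -0.052 (0.867 CPM), against 1.57 to 2.12 for the others. This is 1 of 76 groups of named members tested, where chance marks about 1 in 20. The same library was farthest from its group and batch mean over all tested genes.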

How the results depend on the processing

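Members called in fasted livers, 6 by edgeR, were 17 (of 45 genes called in all) with no filter on low counts, 26 (of 89) by DESeq2, 0 (of 2) without the batch term, 17 (of 33) in batch 1 alone, 0 (of 0) in batch 2 alone, 0 (of 2) with a replicate block and 16 (of 51) without the 2 libraries that lie apart (chosen after seeing the data). In refed livers 0 became 6 (of 10) with no filter, 14 (of 44) by DESeq2, 4 (of 5) in batch 1 alone and 2 (of 3) without the 2 libraries. In batch 2 alone the refed count was 0 (of 7). Averaged over feeding 31 (of 194) became 36 (of 426) by DESeq2, 36 (of 232) without the 2 libraries, 30 (of 125) in batch 1 alone, 26 (of 98) without the batch term, 25 (of 92) with the replicate block and 0 in batch 2 alone, where 0 genes in all were called, the 12 pathway genes included. The fasted median was 1.14 in batch 1 alone and 0.35 in batch 2 alone, and the refed one 0.38 in batch 2 alone. Refeeding called 0 members in WT without the batch term (of 1279 genes called in all), 2 in batch 1 alone (of 846) and 0 in batch 2 alone (of 592). In K556R it called 2 by DESeq2 (of 2682) and 2 without the 2 libraries (of 2600). The batch difference was called for 1 by DESeq2 (of 1). The cause was not tested.

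Leaving out 1 library at a time, the fasted count ran from 0 to 17 (0 without K556R fasted replicate 1, 3 or 4 or any WT fasted library of batch 1; 17 without K556R fasted replicate 2 of batch 1 or WT fasted replicate 4 of batch 2, and 13 without K556R refed replicate 4 of batch 1), the refed count from 0 to 7 (7 without K556R refed replicate 4 of batch 1) and the average count from 26 to 35. The WT refeeding count ran from 0 to 1, the K556R one from 1 to 2, interaction and batch difference from 0 to 0, and the pathway count from 11 to 14. Medians ran from 0.69 to 0.84 fasted, 0.52 to 0.71 refed, 0.06 to 0.15 for WT refeeding and -0.09 to 0.05 for K556R refeeding. Stat2's call was lost with the replicate block (adjusted p = 0.0923 by edgeR). Low counts limit Mx1 (12 to 290 counts) and Oas1g (17 to 195).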
